A study of Mus musculus with 3 samples.

Results

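In all, 10 genes of the Notch pathway, matched by symbol, were read in 3 libraries of splenic lymphoma cells from the pBIC mouse model, called tumours 1, 2 and 3 here. They were the receptor genes Notch1 and Notch2, the fringe genes Mfng and Lfng, the DNA-binding factor gene Rbpj, the Mastermind genes Maml1, Maml2 and Maml3, and the target genes Hes1 and Dtx1. All 10 were found among 37646 listed genes, each once. The pBIC model is a C57BL/6 mouse of genotype p53F/F, Blimp1F/F, IKK2castopF/stopF and Cg1Cre/+, described by the labels as an ABC-DLBCL lymphoma. It combines floxed p53 and Blimp1 alleles with an IKK2ca allele behind a floxed stop, and the Cre is driven from the Cg1 (Ighg1) locus. All 3 libraries share this genotype and come from sorted B220+GFP+ spleen cells of moribund mice. Age and sex are not given, and the labels do not say that the libraries came from separate animals. There is 1 group, and normal germinal centre B cells, the study's controls, were not analysed here. No comparison between groups was made. A p-value for variability measures only the spread between these samples, which may be technical. A p-value for a difference between genes asks only whether that difference was consistent across these samples.

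Notch receptors sit on the cell surface and are cut when a ligand on a neighbouring cell pulls on them. The freed intracellular part enters the nucleus, binds RBPJ and recruits a Mastermind coactivator, which turns RBPJ from a repressor into an activator of genes such as Hes1 and Dtx1. In the mouse spleen, Notch2 signalling started by the ligand DLL1 directs B cells to the marginal zone fate, and fringe glycosyltransferases tune how receptors respond to Delta ligands.

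The libraries held 15022902 to 15141009 counts, and a gene without a count could have been present at up to 3 counts, or 0.198 to 0.200 CPM (counts scaled to a library total of 1000000). All 6 B cell markers exceeded 1 CPM in every tumour, with Ptprc at 484.9 ± 210.0 CPM (SD, n = 3). Counts per gene do not tell the B220 isoform of Ptprc from its other isoforms. The summed level of the 6 markers was 3530, 1885 and 1647 CPM in tumours 1, 2 and 3. The 8 T cell markers summed to 75.9, 50.4 and 103 CPM, mostly from Cd8b1 (25.2, 18.0 and 56.1 CPM) and Lck (31.8, 11.3 and 9.55 CPM). Cd3e had 1.65, 2.13 and 1.72 CPM. Cd3g had 4.03, 7.06 and 12.3 CPM, Cd4 4.69, 1.66 and 10.5 CPM and Cd8a 2.25, 5.66 and 8.03 CPM. The 6 neutrophil markers summed to 56.4, 19.3 and 3.18 CPM. The 6 dendritic cell markers summed to 13.8, 20.8 and 16.0 CPM. Flt3 had 2.64, 10.5 and 9.69 CPM, and Clec9a no more than 2 counts in any tumour. Lyz2, a macrophage marker called variable between tumours (edgeR adjusted p = 0.0372, and from 1.84e-05 to 0.988 over the alternatives), had 7.73, 53.8 and 4.11 CPM. Its call was lost with library totals (0.104), with limma voom (0.121) and when a mean of 10 counts was required (0.139). It was also lost when a trend with gene length was removed and without any 1 tumour. Cd68 made up most of the macrophage sum of 159, 197 and 154 CPM, and Pecam1 most of the endothelial sum of 159, 134 and 162 CPM. Egfl7 had 34, 51 and 149 counts and Cdh5 had 25, 1 and 5. Kdr, Tek and Stab2 had at most 2 counts in any tumour. Stromal markers (5 of 6 listed) summed to 1.06, 0.732 and 0.398 CPM, and Pdpn had no count. The part of any of these cells in the values below was not tested.

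The bases before the RefSeq start sites of a few of these genes are shown because RBPJ binds a short core, TGGGAA, that can be looked for in the letters themselves. Of the 10 genes, 8 were matched by symbol to RefSeq promoters of build GRCm38.p6, in 10 windows of 250 nt, and Hes1 and Mfng were not. Notch2 is shown as the most abundant receptor, Lfng because both of its cores lie in the bases shown, and Rbpj as the gene of the factor that binds them. Each stretch runs 5′ to 3′ on the strand of the gene and stops before any exon that GENCODE M21 annotates in that window. Capitals mark TGGGAA or its reverse complement TTCCCA.
Notch2, chr3:98013288-98013526 (+ strand): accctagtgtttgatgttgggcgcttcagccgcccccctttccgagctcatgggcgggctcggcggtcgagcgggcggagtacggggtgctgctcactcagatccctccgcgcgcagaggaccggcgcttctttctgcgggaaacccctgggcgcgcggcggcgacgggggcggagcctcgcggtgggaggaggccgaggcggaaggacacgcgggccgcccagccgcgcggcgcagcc
Lfng, chr5:140607091-140607319 (+ strand): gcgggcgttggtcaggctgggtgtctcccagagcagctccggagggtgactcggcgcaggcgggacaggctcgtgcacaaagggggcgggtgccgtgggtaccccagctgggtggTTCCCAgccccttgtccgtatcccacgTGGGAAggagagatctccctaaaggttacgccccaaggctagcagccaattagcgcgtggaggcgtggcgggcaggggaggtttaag
Rbpj, chr5:53590096-53590213 (+ strand): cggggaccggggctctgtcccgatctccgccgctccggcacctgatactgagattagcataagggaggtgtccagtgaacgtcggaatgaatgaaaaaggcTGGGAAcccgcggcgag

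The core was found on either strand in 5 of the 10 windows, against 21.6% of all 32851 windows of this length. The 5 windows belong to 4 of the 8 genes with a window, namely Lfng, Rbpj, Maml2 and Maml3. Those of Rbpj overlap each other and share a match, so the same site is counted in both. In Lfng the matches began 135 and 108 nt before the start site. The Rbpj window lies inside the gene as GENCODE M21 gives it, and its second core, 65 nt before the RefSeq start, lies past the start of an annotated exon and is not shown. The windows of Notch1, Notch2, Maml1 and Dtx1 did not hold the core, which says only that these letters are absent there. A match is a description of sequence and was not tested as a binding site.

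Notch2 was the dominant receptor transcript in every tumour. The gene (ENSMUSG00000027878.11, chromosome 3, 98013527 to 98150361) had 5723, 3841 and 3029 counts in tumours 1, 2 and 3, or 378, 256 and 201 CPM. Its mean was 278 ± 90.6 CPM (SD, n = 3), highest in tumour 1 and lowest in tumour 3. Notch1 (ENSMUSG00000026923.15, chromosome 2, 26457903 to 26516663), the receptor best known for its role in T cell development, had 373, 215 and 341 counts, or 24.6, 14.3 and 22.6 CPM. Its lowest value was in tumour 2, and no tumour brought it near the level of Notch2.

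Levels of different genes were compared per length, as TPM (counts divided by the length of the union of annotated exons, then scaled to the same total). On this scale Notch2 had 112, 67.7 and 55.4 TPM and Notch1 5.54, 2.87 and 4.73 TPM. Notch2 exceeded Notch1 by 4.11, 4.15 and 3.30 in log2(TPM + 1), a mean of 3.85 ± 0.48 (SD, n = 3), which is 14.5-fold on that scale. The direction held in 3 of 3 tumours, with a two-sided exact sign-flip permutation p of 0.25, the smallest that 3 tumours allow, and 0.3125 after Benjamini-Hochberg adjustment over the 5 differences computed. The other receptor genes, Notch3 and Notch4, had 1.41 ± 1.01 and 0.972 ± 0.489 CPM. Notch2 held 93.4% ± 2.30 (SD, n = 3) of the summed TPM of the 4 receptors, Notch1 5.48% ± 1.99, Notch3 0.588% ± 0.233 and Notch4 0.495% ± 0.371.

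**Figure D1:**
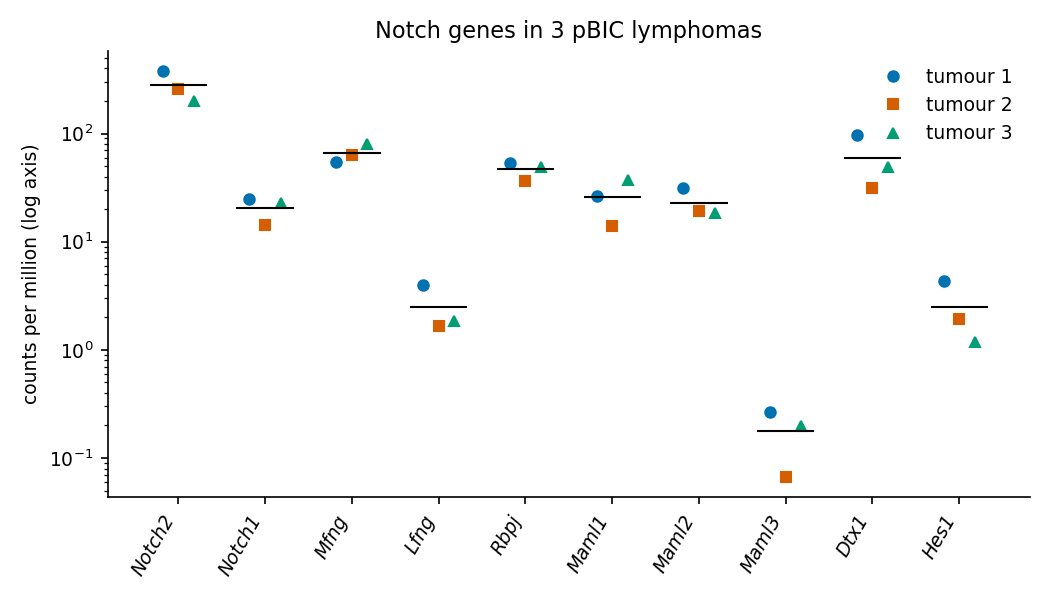
CPM (log axis) of the 10 Notch genes in tumours 1, 2 and 3, with a line at the mean of each gene, ordered by role. Notch2 lies between 201 and 378 CPM in all tumours, whereas Maml3 stays below 0.3 CPM.

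Among the fringe genes, which encode enzymes that lengthen the O-fucose sugars of Notch, Mfng led. Mfng (ENSMUSG00000018169.12, chromosome 15, 78755882 to 78773475) had 822, 954 and 1204 counts, or 54.3, 63.5 and 79.9 CPM, with a mean of 65.9 ± 13.0 CPM (SD, n = 3). It was lowest in tumour 1, where most of the other genes were highest. Lfng (ENSMUSG00000029570.5, chromosome 5, 140607320 to 140615545) had only 60, 25 and 28 counts, or 3.96, 1.66 and 1.86 CPM. The exact 95% Poisson interval in tumour 1, 3.02 to 5.10 CPM, did not overlap those of tumours 2 (1.08 to 2.46 CPM) and 3 (1.23 to 2.68 CPM). Such intervals cover counting error only, and no molecular identifiers are named in the labels. Lfng was not called variable between tumours (edgeR adjusted p = 0.997).

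Mfng exceeded Lfng by 3.36, 4.49 and 4.72 in log2(TPM + 1), a mean of 4.19 ± 0.73 (SD, n = 3), which is 18.2-fold on that scale. All 3 tumours had this direction (exact sign-flip p = 0.25, adjusted p = 0.3125). Rfng, the third fringe gene, lay between them at 29.6 ± 4.78 TPM. Mfng held 67.8% ± 7.28 of the summed fringe TPM, Rfng 29.2% ± 5.82 and Lfng 3.0% ± 1.74.

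Rbpj, which encodes the factor that carries the signal to DNA (ENSMUSG00000039191.12, chromosome 5, 53466152 to 53657362), had 816, 542 and 747 counts, or 53.9, 36.1 and 49.6 CPM. The mean was 46.5 ± 9.29 CPM (SD, n = 3), with the lowest value in tumour 2. The processed pseudogenes Rbpj-ps3 and Rbpj-ps1 had at most 7 counts in any tumour, but reads of near-identical copies could have been split or left out. The level per length depends on the transcripts counted. It was 11.1 TPM with the union of exons (12750 nt) and 20.2 TPM with the longest transcript (5485 nt).

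Maml1 and Maml2 were both present at moderate levels, and Maml3 was near the count floor. Maml1 (ENSMUSG00000050567.16, chromosome 11, 50255634 to 50292311) had 400, 211 and 558 counts, or 26.4, 14.0 and 37.0 CPM, highest in tumour 3 and lowest in tumour 2. Maml2 (ENSMUSG00000031925.17, chromosome 9, 13297957 to 13709388) had 473, 289 and 278 counts, or 31.2, 19.2 and 18.4 CPM, highest in tumour 1. The difference Maml1 minus Maml2 was 0.013, -0.18 and 1.17 in log2(TPM + 1), a mean of 0.33 ± 0.73 (SD, n = 3), positive in 2 of 3 tumours (exact sign-flip p = 0.75, adjusted p = 0.75). It rested on tumour 3, without which it was -0.082.

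Maml3 (ENSMUSG00000061143.15, chromosome 3, 51685907 to 52105076) had 4, 1 and 3 counts, or 0.264, 0.0666 and 0.199 CPM. It was the only one of the 10 genes below 1 CPM. Over all tumours Maml1 had 1169 counts against 8 of Maml3, a ratio per length of 277 (exact 95% interval 140 to 644, counting error only). On the log2(TPM + 1) scale Maml1 minus Maml3 was 3.75 ± 0.66 (SD, n = 3), with the same sign in all 3 tumours (exact sign-flip p = 0.25, adjusted p = 0.3125), and 6.46 with a pseudocount of 0.1. The summed Mastermind TPM was 55.7% ± 12.9 Maml1, 44.1% ± 12.9 Maml2 and 0.193% ± 0.0742 Maml3.

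The target genes Dtx1 and Hes1 stood far apart in level. Dtx1, which encodes the ubiquitin ligase Deltex 1 and is a Notch target in B cells (ENSMUSG00000029603.15, chromosome 5, 120680202 to 120711927), had 1474, 473 and 742 counts, or 97.4, 31.5 and 49.2 CPM. The value in tumour 1 was 3.09 times that in tumour 2. Hes1, which encodes a transcriptional repressor induced by Notch in many tissues (ENSMUSG00000022528.8, chromosome 16, 30064384 to 30067796), had 66, 29 and 18 counts, or 4.36, 1.93 and 1.19 CPM. Its exact 95% Poisson interval was 3.37 to 5.55 CPM in tumour 1, 1.29 to 2.77 CPM in tumour 2 and 0.708 to 1.89 CPM in tumour 3. The interval of tumour 1 did not overlap the others, and those of tumours 2 and 3 overlapped. These intervals cover counting error only, and Hes1 was not called variable between tumours (edgeR adjusted p = 0.986).

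Hes1 minus Dtx1 was -2.94, -2.28 and -3.39 in log2(TPM + 1), a mean of -2.87 ± 0.56 (SD, n = 3). Hes1 was thus 7.32-fold lower on that scale, and lower in all 3 tumours (exact sign-flip p = 0.25, adjusted p = 0.3125). Without division by length the mean was -4.06. Among the other Deltex genes, Dtx3l had 74.1 ± 26.3 TPM, Dtx3 51.8 ± 15.8 TPM, Dtx2 34.3 ± 4.28 TPM and Dtx4 4.79 ± 2.44 TPM, against 34.6 ± 21.8 TPM for Dtx1. Dtx1 therefore held 16.3% ± 5.86 of the summed Deltex TPM.

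The order of mean TPM was Notch2 (78.4), Mfng (69.6), Dtx1 (34.6), Maml1 (14.2), Rbpj (11.1), Maml2 (10.6), Notch1 (4.38), Hes1 (3.77), Lfng (3.05) and Maml3 (0.0517). Of the 9 pairs of neighbours in this order, 6 had ranges over the tumours that overlapped. The 3 that did not were Mfng and Dtx1, Maml2 and Notch1, and Lfng and Maml3. Notch2 lay above 89.2% of protein-coding genes by mean TPM, Mfng above 87.8%, Dtx1 above 77.4%, Rbpj above 60.5%, Hes1 above 50.8% and Maml3 above 26.6%. With the length of the longest transcript Mfng (83.1 TPM) passed Notch2 (63.2 TPM), and Rbpj (20.2 TPM) passed Maml1 (11.1 TPM), so these orders depend on the length used.

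**Figure D2:**
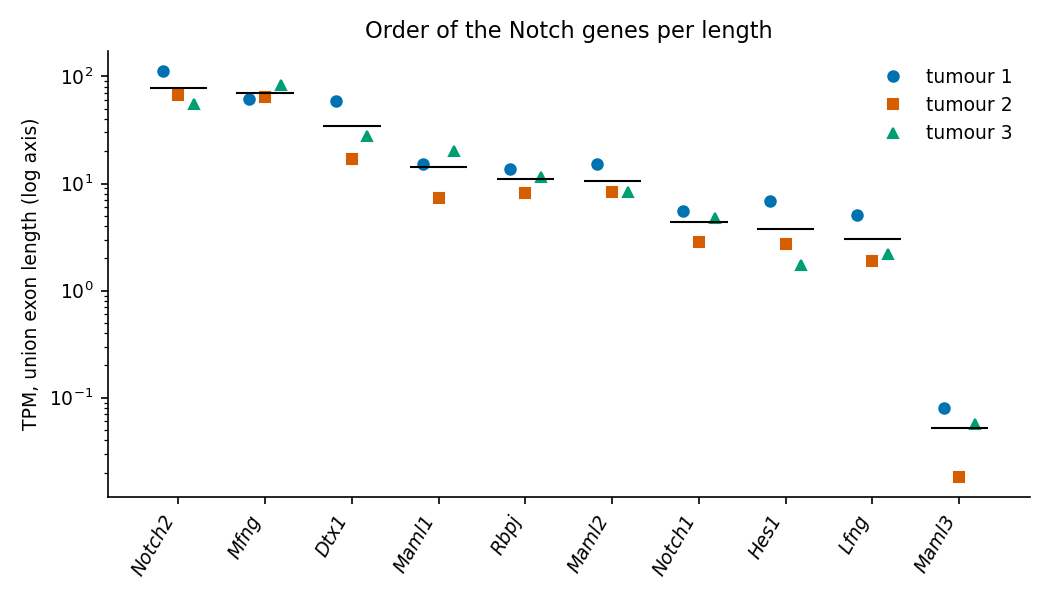
TPM per tumour (log axis, union exon length) of the 10 genes in the order of their means, which are drawn as lines. In 3 places there is no overlap between neighbours, and the last, from Lfng at 3.05 to Maml3 at 0.0517 TPM, is the widest.

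In total 9 of the 10 genes reached 1 CPM in every tumour, against 53.6% of the 18730 protein-coding genes listed. None of the 9 genes that passed the filter on low counts was called variable between tumours. The edgeR variability test asks whether a gene differed between tumours more than genes of like abundance do, and 0 of 9 had an adjusted p under 0.05, against 16 of 11478 genes tested (0.139%). At an unadjusted p under 0.05 there was 1 of 9, Dtx1, against 6.27% of all tested genes, and limma voom also gave 0 adjusted and 1 unadjusted. Without tumour 1 or without tumour 2 the unadjusted count was 0. Dtx1 had an edgeR p of 0.0306 and an adjusted p of 0.706, which ran from 0.556 to 0.991 over the alternatives. For Maml1, Hes1 and Notch2 the edgeR adjusted p was 0.981, 0.986 and 0.997. A p that misses the threshold does not show that the tumours were alike. Maml3, with 8 counts in all, did not pass the filter.

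The ratio of the highest to the lowest tumour had a median of 1.88 over the 9 tested genes and of 1.63 over all tested genes. It exceeded 2 for 4 of the 9 (Hes1 3.65, Dtx1 3.09, Maml1 2.64 and Lfng 2.38), against 29.2% of all tested genes. The steadiest were Mfng at 1.47 and Rbpj at 1.49. Notch2 had 1.88.

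**Figure D3:**
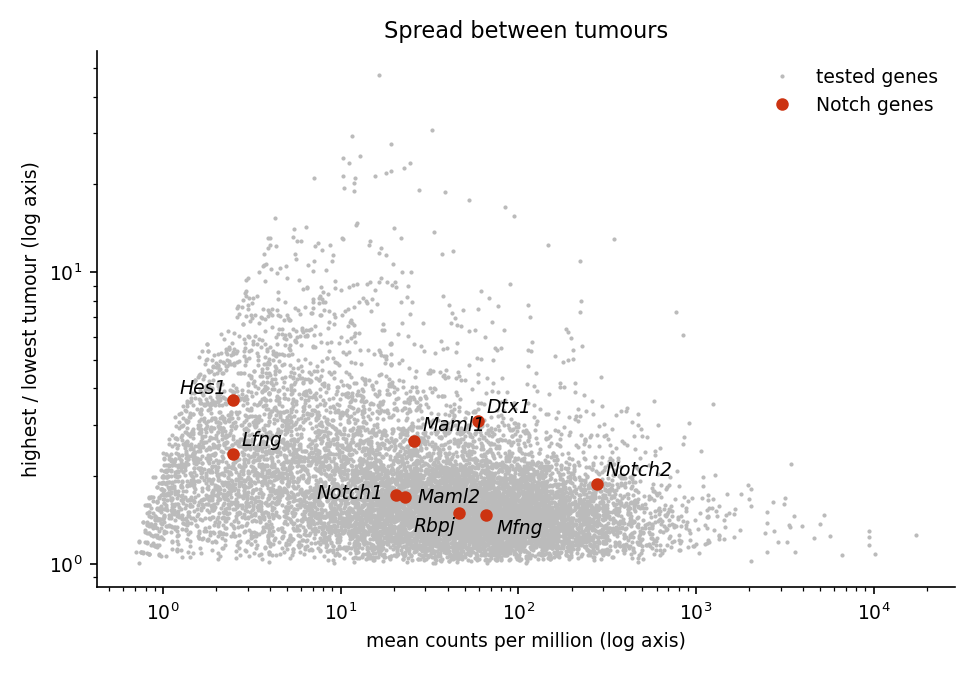
Ratio of the highest to the lowest tumour against mean CPM (both log axes) for 11478 tested genes in grey and the 9 tested Notch genes in red. The Notch genes lie inside the grey cloud, with Hes1 (3.65) and Dtx1 (3.09) uppermost.

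Tumour 1 had the highest value for 7 of the 9 tested genes, against 35.4% of all tested genes, and tumour 2 the lowest for 5 of the 9, against 39.4%. Mfng and Maml1 were highest in tumour 3. All 6 B cell markers were also highest in tumour 1. The libraries differed with gene length as well. Among tested genes of 6649 nt or more, to which Notch1, Notch2 and Rbpj belong, the median log2 deviation from a gene's own mean was 0.25 in tumour 1 and -0.24 in tumour 2. Among those of 2613 nt or less it was -0.16 and 0.15. After the median of each of 4 length classes was subtracted (a step chosen after seeing the data), 5 of the 9 genes were highest in tumour 1 (30.9% of all tested genes) and 5 were lowest in tumour 2 (34.2%). The part of B cell marker level or neutrophil RNA in the count for tumour 1 was not tested, and in bulk samples fewer cells of a type and less RNA per cell cannot be told apart.

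The rest of the pathway was read from 55 genes in 9 lists by role. Of these, 39 reached 1 CPM in every tumour, against 53.6% of the protein-coding genes listed. The edgeR variability test called 0 of the 40 tested, against 0.139% of all tested genes. At an unadjusted p under 0.05 it gave 1, against 6.27% of all tested genes, and limma voom gave the same counts. The median ratio of highest to lowest tumour over these 40 genes was 1.52, against 1.63 for all tested genes.

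Of the 5 ligand genes only Jag2 reached 1 CPM in every tumour, with 35, 30 and 71 counts. Dll4 had 6, 16 and 35 counts and Dll3 4, 2 and 5. Dll1, the ligand of marginal zone fate, had 6, 1 and 2 counts, or 0.396, 0.0666 and 0.133 CPM, and Jag1 had 2, 0 and 4. In contrast Mib1, the ubiquitin ligase gene needed for ligand endocytosis, had 22.8 ± 5.93 TPM (SD, n = 3) and Mib2 11.5 ± 3.47 TPM, while Neurl1a had no count in any tumour and Neurl1b at most 3.

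All 4 genes of receptor glycosylation and furin cleavage exceeded 1 CPM, with a median of 23.3 TPM. Poglut1, which adds O-glucose, had 30.7 ± 5.82 TPM, and Pofut1, which adds the O-fucose that fringe enzymes extend, 16.9 ± 5.93 TPM. Of 9 genes of ADAM and γ-secretase cleavage, 7 were at 1 CPM or more throughout. Ncstn, which encodes the γ-secretase subunit nicastrin, had 78.4 ± 12.1 TPM and the sheddase gene Adam10 68.97 ± 27.3 TPM. Aph1b and Aph1c, alternative γ-secretase subunits, had at most 6 and 8 counts in any tumour.

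All 5 coactivator genes exceeded 1 CPM. The acetyltransferase gene Kat2a had 164 ± 26.4 TPM, Snw1 37.96 ± 4.81 TPM and Ep300 31.8 ± 17.2 TPM. Of the 9 RBPJ corepressor genes 8 did so, among them Ctbp1 at 206 ± 38.0 TPM and Ncor1 at 79.9 ± 27.0 TPM, and Ctbp2 did not, at 0.278 ± 0.320 TPM. Spen, whose product MINT competes with Notch for RBPJ in the marginal zone decision, had 135.9, 47.3 and 86.9 CPM in tumours 1, 2 and 3. It was the 1 gene of these lists with an unadjusted edgeR p under 0.05 (0.0467, adjusted p = 0.782, and from 0.753 to 0.994 over the alternatives) and is named for that after its value was seen. With the length trend removed, a step chosen after seeing the data, its unadjusted edgeR p was 0.234.

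Apart from Myc, the other target genes in the list were barely detected. Myc had 1008 ± 156 TPM, but it has many inputs besides Notch. Hes5 had 2, 1 and 5 counts and Nrarp, a feedback inhibitor of Notch, 1, 1 and 5. Hey1 had 1, 0 and 0 counts and Hey2 2, 0 and 0, all at or under the floor of 3 counts. The median of these 6 genes was 0.130 TPM, against 10.8 TPM for the 10 Notch genes and 0.238 TPM for all listed genes, all without a filter on low counts.

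**Figure D4:**
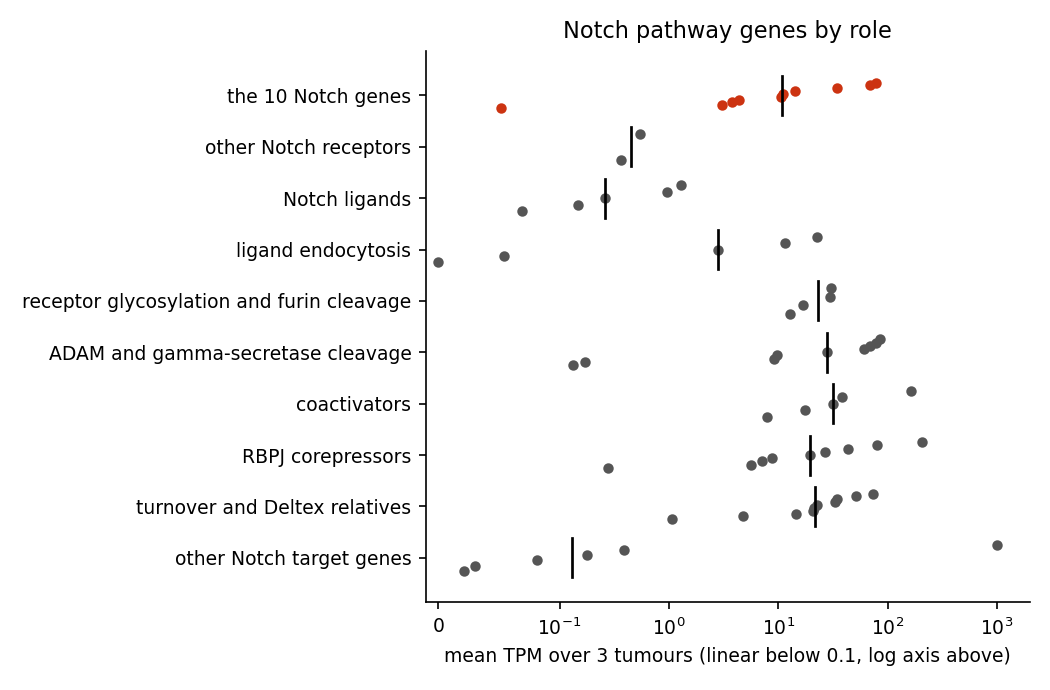
Mean TPM over the 3 tumours (linear below 0.1, log axis above) of the 10 Notch genes in red and of 9 lists of other pathway genes in grey, with a bar at each list median. Ligands and other targets have medians of 0.259 and 0.130 TPM, against 27.9 TPM for the cleavage genes.

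Genes that mark marginal zone B cells were mixed, with some abundant and others near the floor. Of 12 such genes, 9 were at 1 CPM or more in each tumour, and the median of all 12 was 33.2 TPM. For follicular genes these values were 6 of 8 and 109 TPM. Plac8 had 1258 ± 225 TPM (SD, n = 3), the scavenger receptor gene Cd36 338 ± 171 TPM and Tnfrsf13b, which encodes the receptor TACI, 265 ± 65.4 TPM. Cr2, which encodes the CD21 surface marker, had 38, 0 and 1 counts in tumours 1, 2 and 3. Of the further surface markers, both named after their values were seen, Cd9 had 68.9 ± 14.0 TPM and Cd1d1 had 119, 27 and 75 counts, or 7.86, 1.80 and 4.98 CPM. Asb2 was at 0.525 ± 0.167 TPM. Cr2 was thus at or under the floor in tumours 2 and 3. Low counts were not particular to the marginal zone list. Of the follicular genes, Ighd had 151, 6 and 5 counts and Fcer2a 17, 17 and 7.

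The marginal zone genes had a wider median spread between tumours than the Notch genes, a difference that was not tested. Their median ratio of highest to lowest tumour was 3.86 over 10 tested genes, against 1.88 over the 9 Notch genes. It was 3.52 over the 6 tested follicular genes, 2.30 over the 6 B cell markers and 1.63 over all tested genes. In the edgeR variability test 0 of the 10 marginal zone genes had an adjusted p under 0.05, against 0.139% of all tested genes. Limma voom also gave 0. An unadjusted p under 0.05 was reached by 6 of 10, against 6.27% of all tested genes. That count was 6 by limma voom, 4 without tumour 1 and 3 without tumour 2. By edgeR it was 3 of 6 for B cell markers, 2 of 8 for T cell markers and 2 of 2 for neutrophil markers. For dendritic cell markers it was 0 of 3 and for the Notch genes 1 of 9. All these lists were chosen with earlier results of these data known, so such shares are descriptions only. S1pr3, a sphingosine phosphate receptor gene named after its values were seen, had 412, 99 and 14 counts, or 27.2, 6.59 and 0.929 CPM (edgeR adjusted p = 0.0787, and from 0.000772 to 0.824 over the alternatives). S1pr1, whose product keeps marginal zone B cells in place, had 54.6, 14.2 and 89.6 CPM (edgeR adjusted p = 0.192, and from 0.0164 to 0.987 over the alternatives) and was likewise chosen after its values were seen. With every gene that had a count included in the edgeR fit, 4 of 12 passed, against 0.643% of the 25500 genes tested. These were S1pr3 (adjusted p = 0.000772), S1pr1 (0.0164), Cr2 (0.0212) and Plxnd1 (0.0377, named for this result). In this fit 2 of 8 follicular genes and 0 of the 10 Notch genes passed. That fit called 164 genes in all, against 16 in the main fit. Cr2, with 38, 0 and 1 counts, did not pass the main filter, and its call rests on tumour 1 alone. When a mean of 10 counts was required its edgeR adjusted p was 0.307. Plxnd1 had an edgeR adjusted p of 0.262 in the main fit, and up to 0.997 over the alternatives. The order of the tumours differed between genes, with Cr2 and S1pr3 highest in tumour 1 and S1pr1 highest in tumour 3.

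**Figure D5:**
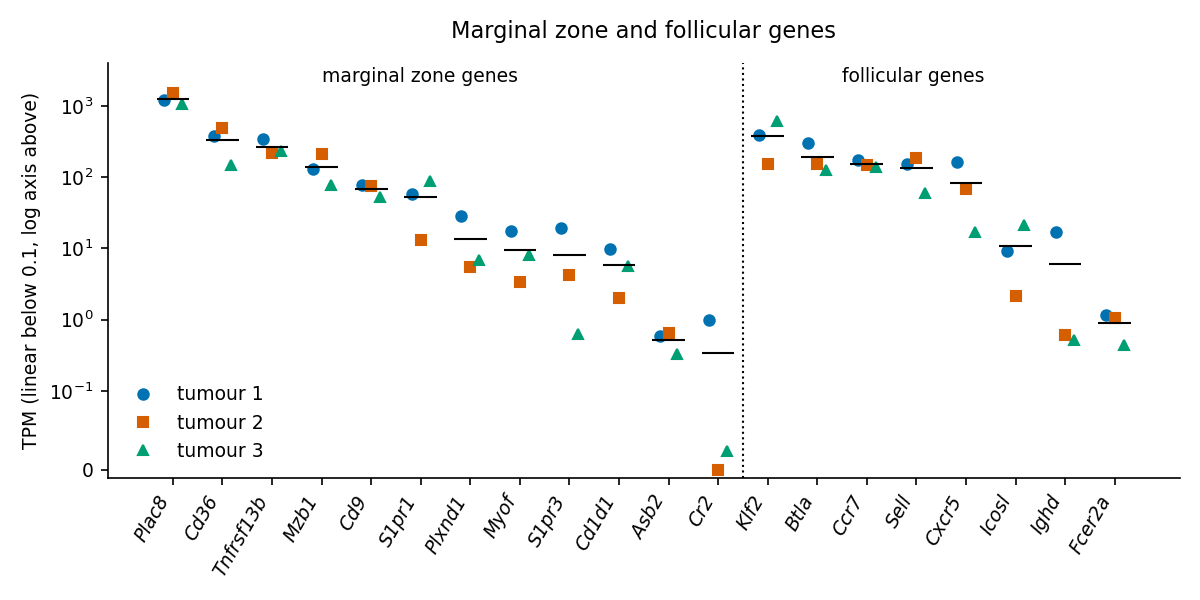
TPM per tumour (linear below 0.1, log axis above) of 12 marginal zone and 8 follicular genes, with lines at the means. Plac8 lies at 1064 TPM or more in all tumours, whereas Cr2 is at 0.990 TPM in tumour 1, 0 in tumour 2 and 0.0243 TPM in tumour 3.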

How the data were processed

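Polyadenylated RNA of sorted spleen cells was sequenced as single reads of 50 nt, in 3 libraries numbered in accession order. The authors deposited raw read counts per gene without normalization. Per the submitters' processing notes, FastQC, STAR 2.5.2b and featureCounts 1.6.0 were used with build mm10. The sources used here do not give their settings, use of strand or annotation release.

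CPM values used library totals. TPM and coordinates used GENCODE M21 (GRCm38), in which 37536 of 37646 identifiers had a length. Variability was tested with edgeR 4.0.16 in R 4.3.3 by an intercept-only quasi-likelihood fit with TMM scaling to the 11478 genes passing filterByExpr. Each gene's deviance (2 degrees of freedom) was set against the robust prior variance at its abundance in a one-sided F test (15.83 prior degrees of freedom) and adjusted by Benjamini-Hochberg over all genes. The script was tested on simulated data. The 5 differences within tumours had exact sign-flip permutation tests. DESeq2 1.42.0 size factors and limma 3.58.1 voom were alternatives. The 10 genes and all lists were chosen with earlier results of these data known. Genes named in the text were the 10 genes and others taken from the 3 highest and 2 lowest of each list by TPM, beside genes at the floor, with exceptions stated. Some genes that this rule would name are not reported here. Exons of the antisense gene Gm26542 overlap Maml1, and those of 0610009E02Rik and Gm13568 overlap Notch1, but these had at most 6 counts. Gm42820, on the strand of Notch2, overlaps its exons and had at most 20. The shared exon bases were 1068 nt (0610009E02Rik) and 414 nt (Gm13568) in Notch1 and 541 nt in Notch2. How reads in shared exons were counted is not given, so these low counts do not show whether reads were left out. No genes were named by likeness of pattern, since 3 libraries leave 2 degrees of freedom.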

Additional observations from a re-analysis of the deposited data

How the results depend on the processing

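The variability test called 0 of the Notch genes in each of 9 alternatives, but 5 of these called no gene at all. The number of all genes called did not hold. It was 16 as reported and 15 with DESeq2 size factors, 0 with library totals, 0 when a mean of 10 counts was required, 164 with every gene that had a count, 8 with limma voom, 0 with the length trend removed (chosen after seeing the data) and 0 to 11 when 1 tumour was left out (0 without tumour 1 or tumour 2). The 9 genes at 1 CPM in every tumour numbered 9 with TMM scaling too. With another pseudocount or length, 15 of 15 values of the 5 differences kept their direction. With 1 tumour left out, the 4 differences of 1 sign in all tumours could not reverse, and Maml1 minus Maml2 ran from -0.082 (without tumour 3) to 0.59 (without tumour 2). TMM scaling moved the 10 mean levels by at most 1.27%. Without tumour 1 the mean of Hes1 was 1.56 CPM (from 2.49) and that of Dtx1 40.4 CPM (from 59.4). Depth limits Maml3, Hes1 and Lfng, with 1 to 66 counts per tumour. No paired comparison of groups was possible because there is 1 group, and the 5 differences paired genes within each tumour. The causes were not tested.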

Other observations

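Genes of follicular B cells ranged from a steady level to wide differences between the tumours. Of 8 genes 6 were tested, and their median ratio of highest to lowest tumour was 3.52. Ccr7, which encodes a homing receptor for lymphoid tissue, had 109, 104 and 92.0 CPM, a ratio of 1.19. Btla, which encodes an inhibitory receptor, had 326, 180.3 and 146 CPM, a ratio of 2.23. Klf2, a regulator that holds B cells in the follicular state, had 226, 99.6 and 378 CPM in tumours 1, 2 and 3. Cxcr5, the receptor gene for entry into follicles, was named after its values were seen and had 173, 79.2 and 18.9 CPM (edgeR adjusted p = 0.0536, and from 0.000132 to 0.986 over the alternatives). Ighd had 151, 6 and 5 counts, and Fcer2a, which encodes the follicular marker CD23, had 17, 17 and 7 counts. In the edgeR variability test 0 of 6 had an adjusted p under 0.05, against 0.139% of all tested genes, with 0 also by limma voom. An unadjusted p under 0.05 was reached by 4 of 6, against 6.27% of all tested genes. That count was 4 by limma voom, 3 without tumour 2 and 1 without tumour 3 (of 7 tested). The follicular list too was chosen with earlier results of these data known, so this share is a description only.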
